A study of Mus musculus with 27 samples.

Results

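Keratin-associated proteins (KAPs) are small proteins that fill the space between the keratin filaments of the hair shaft and are cross-linked to hair keratins by disulfide bonds. They are grouped by composition into high-sulfur, ultrahigh-sulfur and high glycine-tyrosine proteins, and their genes, named Krtap, lie in clusters. The genes are switched on late, as cells of the hair matrix stop dividing and become the cortex, the main body of the shaft, the cuticle around it, or the medulla at its core. All genes whose symbol starts with Krtap were taken, which gave 58 members in 27 subfamilies, named by the number before the hyphen. The single cell tables held 57 of them among 32285 genes and the table of RNA-seq counts held 57 among 51906, with 56 in both. Krtap15 was in the single cell tables only and Krtap19-9a, annotated as a processed pseudogene, in the RNA-seq table only.

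In vivo, single cell libraries had been made from back skin of 2 wild-type mice at postnatal day 32, in the last stage of hair growth (AnaVI). The methods name a sort that removes CD45+, CD31+, CD140a+ and CD117+ cells, yet fibroblast-like and immune-like cells were present. In vitro, stem cells of the hair follicle (HFSCs) were grown in 3D in 7 media and pooled with hashtags. Per the methods, they came from the same animals as the skin. The labels name FBS, B-27 in place of serum, and atRA+PKCi (all-trans retinoic acid with a protein kinase C inhibitor). The others were Rspo, BMP2/4, Rspo+BMP2/4, and Rspo+BMP2/4 with an inhibitor of retinoic acid receptors (RARi). Per the paper, cells given Rspo, BMP or RARi also received atRA and PKCi, which these labels leave out. RNA-seq covered HFSC cultures from telogen skin at postnatal day 55 of wild-type mice and of Rxra cKO mice (Sox9CreER; Rxra fl/fl; Rosa26-LSL-YFP), in FBS or atRA+PKCi, with 2 libraries in each of the 4 groups. The culture lines had been started on inactivated feeder cells. The single cell samples are labelled by mouse. The RNA-seq labels only number the 2 libraries of a group and do not say whether they come from different mice.

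The 2 skin libraries held 16521 and 16068 barcodes, which shared 62 barcode sequences. After filters and removal of 833 and 307 doublets called with Scrublet, 13625 and 13608 cells remained, with medians of 8671 and 10463.5 UMIs (unique molecular identifiers, counts of captured molecules). Clustering without any Krtap gene gave 32 clusters, of which 20 were named from marker lists, and the names mean only that the markers were high. The cortex-like class of 748 and 443 cells held 2696 and 1841 CPM (UMIs of the gene in 1e+06 UMIs of the class) of Krt35, an early hair keratin, and 12 of the 13 cortex markers on the list could be matched. The medulla-like class of 574 and 388 cells held 1607 and 1563 CPM of Tchh (trichohyalin), and the inner root sheath-like class 3482 and 2951 CPM of Krt71. No cluster was named as hair shaft cuticle.

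Few KAP genes were detected in growing skin. The 27233 cells held 12972 Krtap UMIs, 7501 in mouse 1 and 5471 in mouse 2, and 8 members with at least 50 UMIs held 99.3% of them. Krtap8-1, a high glycine-tyrosine protein gene, alone held 7835 UMIs or 60.4%. Krtap15, a high-sulfur protein gene, followed with 2401 UMIs or 18.5%, and Krtap7-1, also of the high glycine-tyrosine type, with 1574 or 12.1%. The remaining detected members were Krtap11-1 with 507 UMIs, Krtap3-3 with 277, Krtap17-1 with 129, Krtap14 with 102 and Krtap13-1 with 57. A further 28 members had between 1 and 16 UMIs, 90 in all, of which 16 lay in cortex-like and medulla-like cells. The other 21 members had none in the analysed cells. Removed doublets held 865 Krtap UMIs and barcodes under the filters 360.

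By protein type, the 15 high glycine-tyrosine members held 72.6% of Krtap UMIs, the 15 high-sulfur members 26.1% and the 20 ultrahigh-sulfur members 1.20%, with 7 members left unassigned. The largest subfamilies were among the lowest. The 8 members of KAP4, the largest ultrahigh-sulfur subfamily, held 7 UMIs together, the 5 members of KAP5 held 1, and the 3 of KAP9 held 10. Of the high glycine-tyrosine group, the 6 members of KAP19 held 4 UMIs and the 4 members of KAP6 also 4, while KAP20 and KAP21 had none. Summed ultrahigh-sulfur levels were 0 CPM in mouse 1 and 0.172 CPM in mouse 2 in cortex-like cells and 0 CPM in medulla-like cells of both mice. Counts of 0 allow up to 0.354 and 0.517 CPM in the cortex-like cells, taking 3 UMIs as the limit. All intervals and limits cover counting error only.

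Paralogs can share reads. Over windows of 60 bases in the last 400 bases of each transcript, 46 members had only sequence found in no other gene, and 12 shared some, 6 of them over 10% of their windows. Krtap4-13 shared 96.2%, Krtap5-1 36% and Krtap5-2 34.3%, so low counts of these members are uncertain. Among the 8 detected members, Krtap15 shared 20.7% of its windows, with 4930553J12Rik, which is no KAP gene.

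The detected members lay mainly on chromosome 16. In GENCODE M21 (GRCm38), 25 members span 960.5 kb there (chr16:88610705-89571183) and held 96.3% of Krtap UMIs. The 23 members over 443.9 kb of chromosome 11 (chr11:99550130-99993994) held 3.55%. The rest, 5 on chromosome 7, 3 on chromosome 10 and 2 on chromosome 1, held under 0.1% on each chromosome. Of the 58 members, 53 have a single exon. Krtap8-1 (chr16:89487379-89487952), Krtap7-1 (chr16:89507703-89508323) and Krtap11-1 (chr16:89570176-89571183), all on the minus strand, lie within 83.8 kb at the end of the cluster. Krtap14 (chr16:88818667-88826145, minus strand) and Krtap15 (chr16:88820215-88829844, plus strand) have 2 annotated transcripts each, and the genes overlap only through the longer ones. The shorter transcripts, chr16:88825290-88826145 for Krtap14 and chr16:88828994-88829844 for Krtap15, do not overlap. The 657.5 kb between Krtap15 and Krtap8-1 hold 15 members, 14 of them in the single cell tables, and these had 14 UMIs in all. Krtap3-3 (chr11:99550130-99550865) and Krtap17-1 (chr11:99993234-99993994), both on the minus strand, are the first and the last member on chromosome 11.

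**Figure D1:**
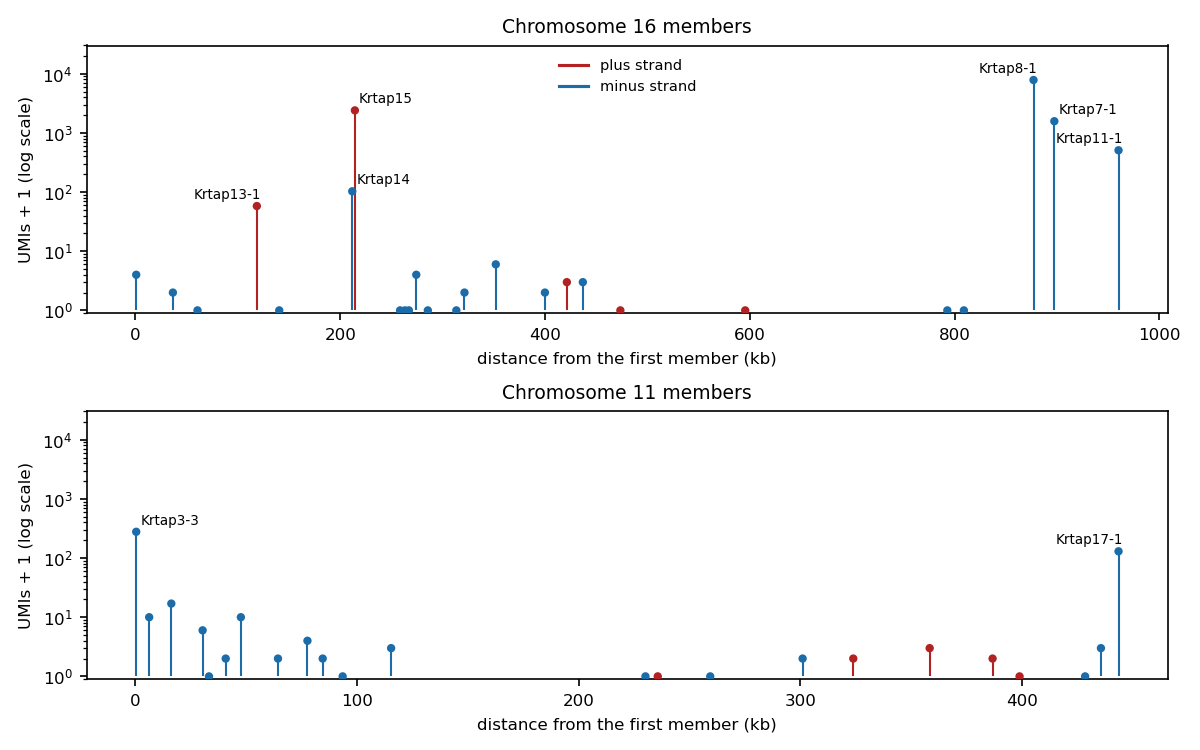
UMIs in skin (both mice summed, plus 1, log scale) of each member against its distance in kb from the first member on chromosome 16 (top) and chromosome 11 (bottom), colored by strand. The 6 detected members of chromosome 16 stand at 57 UMIs or more, in the neighbourhoods of Krtap13-1 to Krtap15 and of Krtap8-1 to Krtap11-1, and most members between them are at or near 0.

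Many members, detected or not, shared a promoter feature. Sequences from RefSeq (GRCm38.p6) were matched for 51 members, 7 of the 8 detected ones among them, and are printed below for 5 members that differed in where they were detected. Each line gives the 120 bases before the RefSeq start, and capitals mark ATATAA, the core of a TATA box, the element that places the start of transcription. The RefSeq start of Krtap15 lies near that of its shorter GENCODE transcript, so its window falls inside the span of the longer one.
Krtap8-1, chr16:89487953-89488072, minus strand: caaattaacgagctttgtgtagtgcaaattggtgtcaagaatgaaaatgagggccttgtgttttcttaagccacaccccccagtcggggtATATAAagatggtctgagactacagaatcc
Krtap11-1, chr16:89571184-89571303, minus strand: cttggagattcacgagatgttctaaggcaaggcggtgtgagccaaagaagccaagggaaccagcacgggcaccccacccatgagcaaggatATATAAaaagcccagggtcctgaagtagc
Krtap15, chr16:88828889-88829008, plus strand: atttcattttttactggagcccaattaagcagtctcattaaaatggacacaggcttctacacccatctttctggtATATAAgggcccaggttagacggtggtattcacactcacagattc
Krtap14, chr16:88826146-88826265, minus strand: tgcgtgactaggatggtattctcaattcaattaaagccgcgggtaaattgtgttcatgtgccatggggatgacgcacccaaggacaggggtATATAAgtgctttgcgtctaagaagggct
Krtap17-1, chr11:99993995-99994114, minus strand: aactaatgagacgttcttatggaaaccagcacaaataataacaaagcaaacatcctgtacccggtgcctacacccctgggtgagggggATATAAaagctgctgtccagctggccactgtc

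On either strand of the 250 bases before the start, ATATAA was found in 31 of 51 members (60.8%), against 9.51% of 27025 promoters of that length. All 7 detected members with a promoter entry held it. On the gene's own strand, starting 40 to 21 bases before the start, it was found in 18 of 51 members (35.3%) and in 1.31% of all promoters. Of the detected members, Krtap3-3, Krtap17-1, Krtap14, Krtap8-1 and Krtap11-1 had it there. Krtap15 and Krtap13-1 had it further upstream of the RefSeq start, at -45 and -53. The Krtap15 position depends on that start, as its shorter GENCODE transcript begins at 88828994, inside the printed window. CTTTGA, the core of the site bound by LEF/TCF factors, was found on either strand in 12 of 51 members (23.5%) and 14% of all promoters, and among the detected members in Krtap14, Krtap15 and Krtap11-1. A direct repeat of AGGTCA with any 5 bases between the copies, a retinoic acid response element, was found in 0 of 51 members and 0.0074% of all promoters. The repeat was also searched on both strands. The motifs were picked after the sequences had been seen, and a match describes the letters alone.

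Krtap UMIs were concentrated in the medulla-like and cortex-like cells, which held 46.6% (6041) and 37.5% (4863) of them. All members together stood at 572 and 569 CPM in medulla-like cells of mouse 1 and mouse 2, and at 373 and 293 CPM in cortex-like cells. This order depended on the clusters. In the alternative that follows, Krtap genes could help set the classes whose Krtap level was then read. When Krtap genes were also offered to the clustering, an alternative applied to these levels after seeing the data, the cortex-like class shrank from 748 and 443 to 284 and 119 cells and stood at 811 and 801 CPM, above the 536 and 518 CPM of the medulla-like cells. Matrix-like cells, the dividing progenitors, held 11.9 and 8.21 CPM, inner root sheath-like cells 13.1 and 9.71 CPM, and outer root sheath-like cells 15.4 and 11.9 CPM. Fibroblast-like cells, which should lack these genes, held 6.70 and 5.08 CPM, so that medulla-like cells were 85.4-fold and 112-fold above them and cortex-like cells 55.7-fold and 57.6-fold. Over the 20 classes and clusters outside the medulla-like and cortex-like cells, each with at least 50 cells per mouse, the level ran from 2.39 to 21.2 CPM with a median of 7.10. Krt35 also reached 21.8 and 16.9 CPM in fibroblast-like cells, and levels near the fibroblast-like level were read as background.

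**Figure D2:**
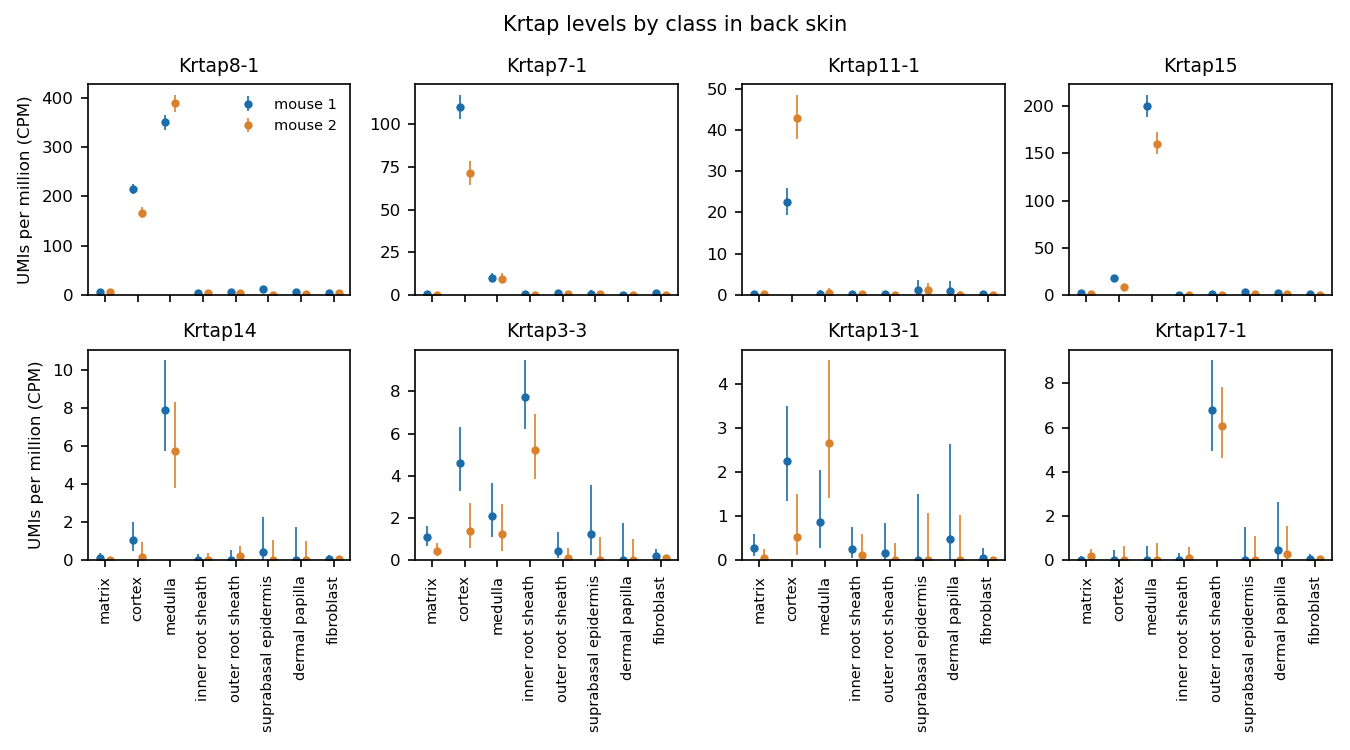
Level of the 8 detected members (CPM, linear axes that differ between panels) in 8 classes of back skin cells, with points for the 2 mice and bars for the exact 95% interval of counting error. Krtap7-1 and Krtap11-1 are highest in cortex-like cells, Krtap15, Krtap14 and Krtap8-1 in medulla-like cells, Krtap3-3 in inner root sheath-like cells and Krtap17-1 in outer root sheath-like cells.

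Each class had its own mixture of KAP genes. In cortex-like cells Krtap8-1 made up 57.3% and 57.0% of Krtap UMIs in mouse 1 and mouse 2, Krtap7-1 29.5% and 24.3%, Krtap11-1 6.04% and 14.6%, and Krtap15 4.78% and 3.00%. In medulla-like cells Krtap8-1 made up 61.2% and 68.3%, Krtap15 35.0% and 28.2%, Krtap7-1 1.78% and 1.69%, and Krtap14 1.38% and 1.01%. The second gene thus differed between the classes, while the first was the same.

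Summed UMIs per mouse and class were compared with edgeR's quasi-likelihood test, and a call needed an adjusted p under 0.01 and a log2 difference over 1 in either direction. Of the 57 members, 7 passed the filter on low counts (all detected members but Krtap13-1), and the filter favors members that are high in some class. The share of the 7 that was called can therefore be raised by the filter. Without it, 31 members were tested. In cortex-like against matrix-like cells 5 of these were higher and 0 lower. Medulla-like against matrix-like and cortex-like against inner root sheath-like cells also gave 5 and 0. Cortex-like against medulla-like cells gave 2 and 2. The classes come from the same 2 mice, and deviations of the same mouse in different classes were correlated with a median of 0.188. The fit with the mouse as a block is therefore given wherever it changed a call.

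Against matrix-like cells, 4 of the 7 members were higher in cortex-like cells and none was lower, beside 2.24% higher and 2.35% lower among all 16209 genes tested. Krtap7-1 stood at 110 and 71.3 CPM in cortex-like cells and 0.671 and 0.283 CPM in matrix-like cells, a log2 difference of 7.55 ± 0.53 (SE, adjusted p = 2.65e-07). Krtap11-1, a high-sulfur protein gene, stood at 22.5 and 42.9 CPM against 0.224 and 0.330 CPM, a log2 difference of 6.82 ± 0.53 (adjusted p = 2.65e-07). For both genes every cortex-like value lay far above every matrix-like value. Krtap8-1 stood at 214 and 167 CPM against 6.98 and 5.33 CPM, with 3.87 and 3.69 CPM in fibroblast-like cells (log2 difference 4.97 ± 0.44, adjusted p = 6.61e-07). Krtap15 stood at 17.8 and 8.78 CPM against 2.33 and 1.23 CPM (log2 difference 2.94 ± 0.43, adjusted p = 0.000162). Krtap3-3, a high-sulfur protein gene, stood at 4.60 and 1.38 CPM against 1.07 and 0.425 CPM and was not called (log2 difference 2.05 ± 0.74, adjusted p = 0.0986), although the fit with the mouse as a block called it (1.99, adjusted p = 0.00797).

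In medulla-like cells 4 of the 7 members were also higher than in matrix-like cells and none was lower, beside 3.99% higher and 648 of the 16209 genes lower. Krtap15 stood at 200 and 160 CPM in medulla-like cells, with a log2 difference of 6.62 ± 0.45 (adjusted p = 1.78e-08). Krtap8-1 stood at 350 and 388 CPM (log2 difference 5.88 ± 0.46, adjusted p = 5.55e-08) and Krtap7-1 at 10.1 and 9.64 CPM (log2 difference 4.30 ± 0.54, adjusted p = 3.81e-05). Krtap14, whose longer transcript overlaps that of Krtap15 on the other strand, stood at 7.87 and 5.74 CPM (log2 difference 6.33 ± 0.90, adjusted p = 0.000202), and DESeq2 did not call it (adjusted p = 0.0360). Krtap11-1 was not called, at 0.350 and 0.615 CPM (log2 difference 0.73 ± 0.85, adjusted p = 0.651).

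The direct comparison of the shaft classes separated these genes. Krtap11-1 (log2 difference 6.09 ± 0.59, adjusted p = 2.12e-06) and Krtap7-1 (3.25 ± 0.42, adjusted p = 8.71e-05) were higher in cortex-like than in medulla-like cells, beside 1.52% of all genes. Krtap15 was lower in cortex-like cells (log2 difference -3.68 ± 0.39, adjusted p = 5.29e-06), beside 2.06% of all genes. Krtap14, at 1.06 and 0.172 CPM in cortex-like cells, was called lower there only with the mouse as a block (-3.32, adjusted p = 0.00348, against -3.26 ± 0.78 and 0.0200 without). The neighbours Krtap14 and Krtap15 thus both stood higher in medulla-like cells in each mouse. Krtap8-1 was not called, with a log2 difference of -0.90 ± 0.37 (adjusted p = 0.194). Without the cell of most Krtap UMIs in each mouse and class, an alternative chosen after seeing the data, it was called lower in cortex-like cells (-1.25, adjusted p = 0.00500). When Krtap genes were offered to the clustering, the difference turned to 0.47 (adjusted p = 0.499), with the smaller cortex-like class of 284 and 119 cells. That value is not independent of Krtap levels, which could help set these classes.

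The inner root sheath, which molds the growing shaft and is not part of it, had a different member. Krtap3-3 stood at 7.75 and 5.23 CPM in inner root sheath-like cells, its highest level among classes and clusters with at least 50 cells in each mouse, against 2.10 and 1.23 CPM in medulla-like cells and 0.198 and 0.0993 CPM in fibroblast-like cells. No member was called against matrix-like cells by edgeR or by DESeq2, with 2 members at an unadjusted p under 0.05, beside 2.41% higher and 2.05% lower among all genes. Krtap3-3 just missed the threshold (log2 difference 3.09 ± 0.71, adjusted p = 0.0102) and was called with the mouse as a block (3.19, adjusted p = 5.92e-05). Krtap15 was called lower in inner root sheath-like cells with that block (-2.05, adjusted p = 0.00279, against -2.03 ± 0.68 and 0.0783 without). Against inner root sheath-like cells, cortex-like cells had higher Krtap7-1 (log2 difference 8.06), Krtap11-1 (6.77), Krtap8-1 (5.82) and Krtap15 (4.97), which were 4 of 7 members beside 3.01% of all genes, and none lower beside 3.21%. The cortex-like to inner root sheath-like difference of Krtap3-3 was -1.04 ± 0.68 (adjusted p = 0.458).

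Krtap17-1, an ultrahigh-sulfur protein gene, was found outside the shaft classes. It stood at 6.78 and 6.06 CPM in outer root sheath-like cells and at 0 UMIs in cortex-like and medulla-like cells of both mice. Nearly all of these UMIs came from the outer root sheath-like cluster led by Pthlh, Krt6a, Krt14, Barx2 and Sox9, with 43 UMIs in 7 of 328 cells of mouse 1 and 57 UMIs in 13 of 273 cells of mouse 2. Its level there was 20.4 and 25.8 CPM, against 0.442 and 0.266 CPM in the other outer root sheath-like cluster. Krt6a and Krt17, listed markers of the companion layer between the sheaths, were among the leading genes of that cluster. The other listed ones, Krt75, Krt6b and Krt16, were not. The cluster's best match was the outer root sheath list, with 9 markers detected, and whether it holds companion layer cells was not tested. Krtap13-1, a high-sulfur protein gene, stood at 2.24 and 0.517 CPM in cortex-like and 0.875 and 2.67 CPM in medulla-like cells, so that the order of the classes differed between the mice.

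Among cortex-like cells the KAP transcripts sat in a small minority. The highest cell of mouse 1 held 807 of 3162 Krtap UMIs (25.5%) and that of mouse 2 held 392 of 1701 (23.1%). The top 5% of cells held 82.8% and 84.1%, 50% of the UMIs came from 7 and 4 cells, and 33.3% and 26.9% of cells had any Krtap UMI. In medulla-like cells 80.1% and 69.3% had one, the top 5% held 28.0% and 36.3%, and the highest cell held 3.52% and 5.08%. With each cell thinned to 3000 UMIs, Krtap8-1 was found in 42.7% and 38.3% of medulla-like cells (62.5% and 54.4% before thinning) and in 11.9% and 11.5% of cortex-like cells (22.3% and 20.5%). Its share in fibroblast-like cells was 0.817% and 0.934% (3.60% and 3.08%). Krtap15 was found after thinning in 34.0% and 27.6% of medulla-like cells and in 2.46% and 0.917% of cortex-like cells.

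**Figure D3:**
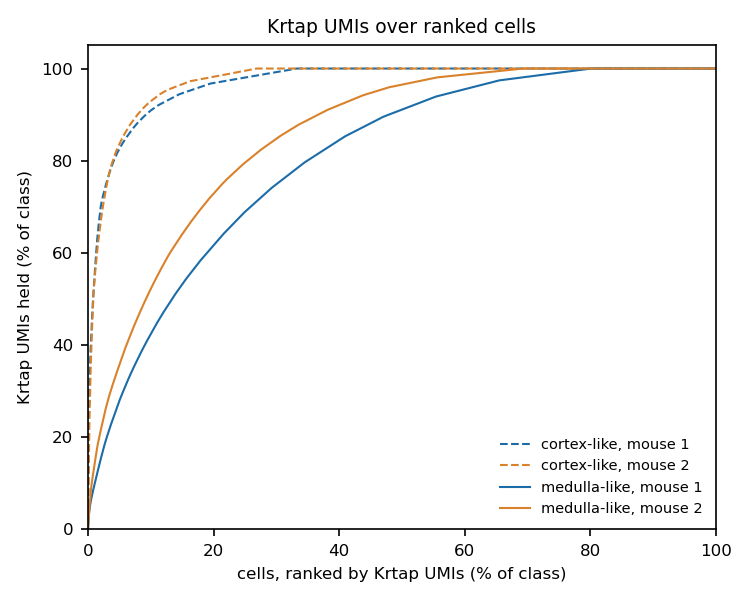
Share of the class's Krtap UMIs (%) held by cells ranked from most to fewest Krtap UMIs (% of the class), with dashed lines for cortex-like and solid lines for medulla-like cells of the 2 mice. The dashed lines reach 82.8% and 84.1% at 5% of cells, where the solid lines are at 28.0% and 36.3%.

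The cortex-like cells rich in KAP transcripts were those of high hair keratin. Cells were cut into 5 equal bins by the share of hair keratin UMIs, with the mice pooled and Krtap UMIs left out. Krt35 rose from 56.5 and 46.7 CPM in the lowest bin to 8099 and 7879 in the highest as the bins require, while Mki67, a gene of dividing cells, stood at 425 and 438 CPM in the lowest and 43.6 and 30.3 CPM in the highest. All Krtap genes together stood at 163 and 165 CPM in the lowest bin, 26.7 and 46.2 CPM in the third and 1205 and 1502 CPM in the highest, which held 179 and 59 cells.

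The members differed along this order. Krtap7-1 went from 8.37 and 0 CPM in the lowest bin, over 9.04 and 11.6 CPM in the fourth, to 426 and 466 CPM in the highest. Krtap11-1 stood at 0 and 4.83 CPM in the fourth and 92.0 and 293 CPM in the highest bin, so that UMIs of both genes came largely from the highest bin. Few cells carried them. Without thinning, Krtap7-1 was found in 8.96% and 6.32% of all cortex-like cells and Krtap11-1 in 2.67% and 4.29%. Krtap8-1 had a level at each end, with 119 and 149 CPM in the lowest bin, 15.7 and 30.8 in the third and 658 and 719 in the highest. Krtap15 showed no such peak in the highest bin, at 25.1 and 11.3 CPM in the lowest, 4.06 and 10.3 in the third and 23.3 and 19.4 in the highest. The summed medulla markers stood at 253 and 214 CPM in the lowest bin, 170 and 128 in the third and 234 and 398 in the highest, and their part in these levels was not tested.

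In medulla-like cells the order was followed with the medulla markers, a choice made after seeing the data. Tchh stood at 82.4 and 78.9 CPM in the lowest of 5 bins and 5066 and 6469 CPM in the highest, and Mki67 went from 461 and 376 to 162 and 92.6 CPM. Krtap15 stood at 75.9 and 39.0 CPM in the lowest bin, 222 in the third in both mice, and 316 and 236 CPM in the highest. Krtap8-1 was highest in the middle of the order, at 277 and 313 CPM in the lowest bin, 410 and 566 in the third and 278 and 188 in the highest. Krtap7-1 was low throughout and went from 18.8 and 15.8 CPM to 3.27 and 0 CPM.

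**Figure D4:**
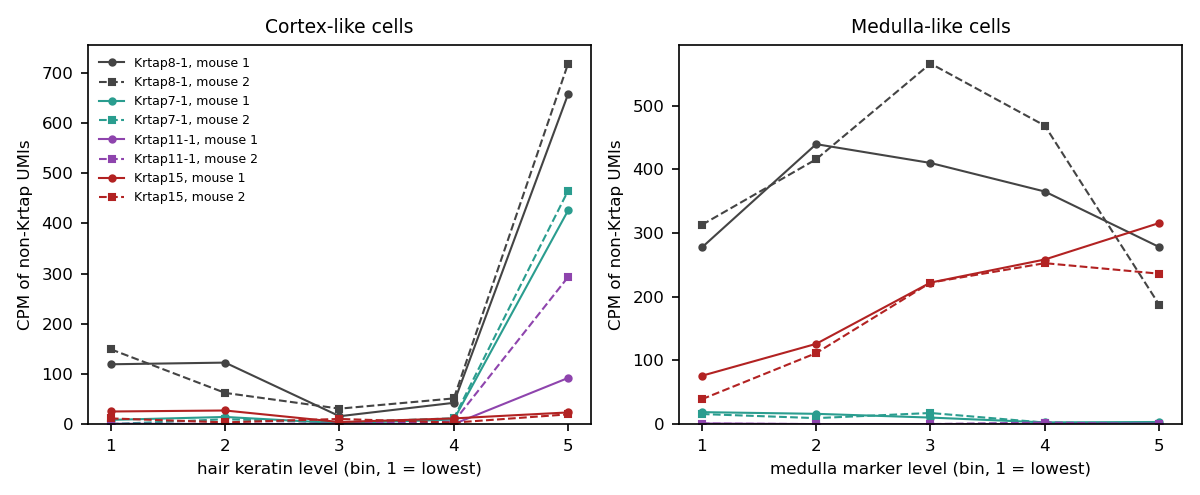
Level of 4 members (CPM of non-Krtap UMIs) in 5 bins of cortex-like cells by hair keratin level (left) and of medulla-like cells by medulla marker level (right), with solid lines for mouse 1 and dashed lines for mouse 2. Krtap7-1 and Krtap11-1 are high only in the fifth bin on the left, and on the right Krtap15 is higher from the third bin on while Krtap8-1 falls back in the fifth.

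A list of 12 transcription factors known from hair shaft formation was read beside the KAP genes. Of these, 4 were higher and 1 was lower in cortex-like than in matrix-like cells, beside 2.24% higher and 2.35% lower among all genes. The median log2 difference was 0.93 over the list and -0.08 over all genes. In medulla-like against matrix-like cells 4 were higher and 3 lower, with a median of 0.82 against -0.12. Most of the 12 had also served as markers for naming classes, namely Hoxc13, Msx1, Msx2, Lef1, Dlx3, Cux1, Foxq1 and Gata3. Of those that had not, Foxn1, the gene mutated in nude mice, was higher in cortex-like (1.69 ± 0.29, adjusted p = 0.000594) and lower in medulla-like cells (-1.57 ± 0.36, adjusted p = 0.00491). Prdm1, a transcriptional repressor, was higher in both (1.77 ± 0.31, adjusted p = 0.000849, and 5.74 ± 0.33, adjusted p = 2.80e-09). Ovol1 was also higher in both (2.17 ± 0.26, adjusted p = 1.39e-05, and 1.44 ± 0.25, adjusted p = 0.000451). The clusters were built from the same cells with only Krtap genes left out, and Prdm1 was among the leading genes of the medulla-like cluster. These p-values are therefore not independent of how the classes were made.

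In the cultured cells read here, KAP transcripts were close to absent. The paper reports more cultured cells in its single cell maps than the barcodes available here. The 657 barcodes of cultured single cells held 13 Krtap UMIs among 15775906, or 0.824 CPM (exact interval 0.439 to 1.41), with 9 UMIs in mouse 1 and 4 in mouse 2. They came from Krtap3-2 with 5 UMIs, Krtap1-5 with 5, Krtap4-16 with 2 and Krtap15 with 1. Krtap8-1, Krtap7-1, Krtap11-1 and Krtap14 had none, which allows up to 0.19 CPM each. Of the 300 cells kept with a single hashtag, none carried that of FBS, and 10 Krtap UMIs were spread over the other media: 4 and 0 in the 113 and 13 BMP2/4 cells of mouse 1 and mouse 2, 3 and 1 in the 92 and 27 Rspo+BMP2/4 cells, 0 and 1 in the 5 and 21 cells with RARi, and 1 and 0 in the 5 and 10 B-27 cells. The 3 cells of atRA+PKCi alone and the 11 of Rspo had none.

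No member passed the filter in the comparisons of BMP2/4 with B-27, of Rspo+BMP2/4 with BMP2/4 and of added RARi with Rspo+BMP2/4. By the paper's account of the media, BMP2/4 against B-27 also spans the addition of atRA and PKCi. Without the filter 3 members were tested in each and 0 were called by edgeR, with 0 at an unadjusted p under 0.05 and 0 by DESeq2. Among all genes tested, 0.431% were higher and 5.28% lower in BMP2/4 than in B-27, and 0.00% were called in either direction in the other comparisons. A difference in any KAP gene between these media was not detectable at this depth.

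In the RNA-seq libraries the targeted gene was read first. Rxra stood at 97.1 and 95.4 CPM in the libraries labelled Rxra cKO in FBS, against 151 and 123 CPM in wild-type (log2 difference -0.49 ± 0.09, adjusted p = 0.00264). In atRA+PKCi it stood at 147 and 145 CPM in the libraries labelled Rxra cKO and 147 and 142 CPM in wild-type (0.01 ± 0.09, adjusted p = 0.927), so that the counts of the whole gene do not check the label there. Krt14, a keratin of basal cells, was at 5711 to 22522 CPM in the 8 libraries.

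KAP genes were at the limit of detection in every RNA-seq library. Of 57 members 51 had 0 counts in all 8 libraries, and the other 6 had 44 counts of 239312405, with at most 9 in a library. In the order FBS then atRA+PKCi, with 2 libraries each, Krtap3-2 had 1, 2, 4 and 2 counts in wild-type and 0, 3, 0 and 4 in the libraries labelled Rxra cKO. Krtap1-5 had 0 in all wild-type libraries and 0, 0, 9 and 2 in those labelled Rxra cKO, so that all its counts came from atRA+PKCi. Krtap4-16 had 2, 0, 1 and 4 counts in wild-type and 0, 0, 2 and 1 in those labelled Rxra cKO. Krtap13-1 had 5 counts, all of them in FBS (1 and 2 in wild-type, 2 and 0 in those labelled Rxra cKO), and Krtap17-1 and Krtap3-3 had 1 count each. In bulk RNA, fewer cells of a type and less RNA per cell cannot be told apart.

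No member passed the filter on low counts among the 15965 genes tested, so 0 members were called by edgeR in any comparison of medium or genotype. Of all genes, atRA+PKCi against FBS raised 27.2% and lowered 26.6% in wild-type, and 20.8% and 22.2% in the libraries labelled Rxra cKO. Between genotypes, 22.3% were higher and 20.5% lower in the libraries labelled Rxra cKO in FBS, and 23.0% and 20.2% in atRA+PKCi. The interaction called 11.3% and 13.3%. Without the filter, 6 members were tested and 0 were called, with 0 by DESeq2 as well. Krtap1-5 alone reached an unadjusted p under 0.05, in the medium comparison of the libraries labelled Rxra cKO (adjusted p = 0.0932, edgeR) and between genotypes in atRA+PKCi (adjusted p = 0.0823, edgeR).

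The hair keratins that KAPs bind to were partly measurable in these cultures, with 5 of 16 tested. In wild-type atRA+PKCi against FBS, 4 were higher and 1 was lower, beside 27.2% higher and 26.6% lower among all genes. The median log2 difference was 3.95 against 0.03 over all genes. Of the 12 hair shaft transcription factors, 11 were tested in the same comparison. They did not move 1 way, with 4 higher, 6 lower and a median log2 difference of -0.40. Krt32, a hair keratin of the cuticle, stood at 0.185 and 0.0779 CPM in wild-type FBS and 6.21 and 6.36 CPM in wild-type atRA+PKCi. In the libraries labelled Rxra cKO it stood at 0.360 and 0.355 CPM in FBS and 2.52 and 2.30 CPM in atRA+PKCi, and the interaction was called (log2 difference 2.80, adjusted p = 0.00316). Krt84, also a hair keratin, was the one lower in wild-type (log2 difference -3.35 ± 0.54, adjusted p = 0.000842), and its interaction was called too (-3.36 ± 0.70, adjusted p = 0.00854). In the libraries labelled Rxra cKO, 1 of the 5 keratins was called, Krt32, which was higher (log2 difference 2.75), while Krt84 was not (0.01 ± 0.42). The summed Krtap level ran from 0.0725 to 0.334 CPM over the same 8 libraries.

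The members found in both culture assays were low in skin. These were Krtap3-2, Krtap1-5 and Krtap4-16, of 7 found in either assay. The other 4, Krtap15 with 1 cultured UMI, Krtap13-1 with 5 RNA-seq counts, and Krtap3-3 and Krtap17-1 with 1 count each, were among the 8 detected in skin. Over all skin barcodes Krtap3-2, Krtap1-5 and Krtap4-16 stood at 0.0352, 0.0192 and 0.0064 CPM, against 0.317, 0.317 and 0.127 CPM in cultured single cells. The skin values average over all cell types, fibroblast-like cells included, while the cultures were grown from HFSCs. The Krtap4-16 values rest on 2 UMIs each, under the limit that 3 counts set. Conversely Krtap8-1, Krtap7-1, Krtap11-1 and Krtap14 had 0 counts in all RNA-seq libraries, which allows up to 0.0125 CPM each over the 8 libraries. The skin and the cultured single cells share their 2 animals but were prepared apart, the RNA-seq cultures came from mice of another age, and the difference between skin and culture was not tested.

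**Figure D5:**
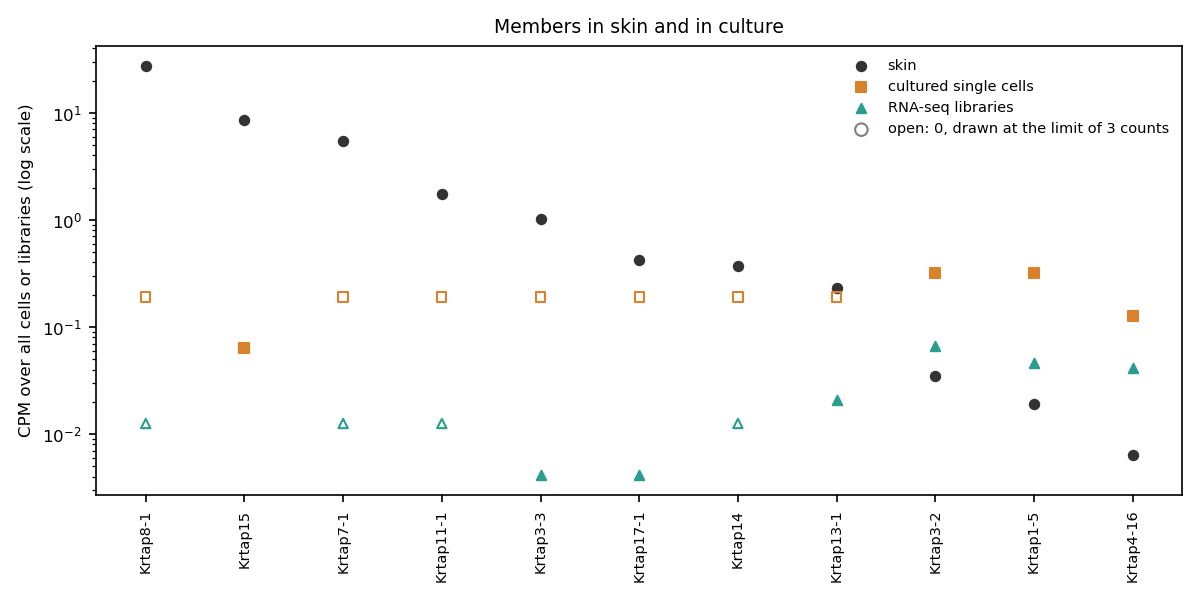
Level (CPM, log scale) of 11 members over all skin cells (circles), all cultured single cells (squares) and the 8 RNA-seq libraries summed (triangles), with open symbols for 0 counts drawn at the limit of 3 counts. Krtap8-1, Krtap7-1, Krtap11-1 and Krtap14 are open in both culture assays, and Krtap3-2, Krtap1-5 and Krtap4-16 are the 3 filled in both.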

How the data were processed

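The authors counted UMIs per gene and cell on mm10 (Cell Ranger, with 7.0.0 in the file headers) and deposited these counts. For RNA-seq, the authors deposited estimated counts per gene from Salmon 1.4.0 and tximport. Both were used as deposited, so SoupX and DoubletFinder cleaning, which the methods name, is not part of them. Whether the counting used strand is not given in the sources used here. The members and gene lists were chosen with earlier results of these data known.

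Cells with at least 500 genes, 1000 UMIs and under 10% mitochondrial UMIs were kept, freed of Scrublet doublets per mouse and clustered in scanpy 1.11.5 (2000 variable genes without Krtap, 30 components, resolution 1.0, seed 11). Clusters were named by marker lists. Hashtags were called with HTODemux (Seurat 5.3.0). UMIs were summed per mouse and class of at least 50 cells. Sums and rounded estimated counts were tested by the quasi-likelihood method of edgeR 4.0.16, with TMM scaling, filterByExpr and Benjamini-Hochberg adjustment over all genes tested. Calls needed an adjusted p under 0.01 and a log2 difference over 1 in either direction for single cells, and an adjusted p under 0.05 for RNA-seq. The fits were tested on simulated data. CPM from 3' UMI counts are not scaled by length. Intervals are exact binomial ones at 95%. RNA-seq totals lay between 25150265 and 35879777 counts, and the p-values measure the spread between 2 mice or 2 libraries. Cells of atRA+PKCi alone fell short of 5 per mouse and were not tested.

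In both shaft classes the same 2 animals recur, so mouse numbers pair the classes. Named were the top member of each subfamily with at least 100 UMIs, the 10 members of highest CPM in a named class, members called in a comparison and members found in culture. That rule also names Krtap10-10 and Krtap10-4, with 3 and 1 UMIs in immune-like and endothelial-like cells. Alternatives were DESeq2 1.42.0, no filter, each mouse or library left out, other cell filters and resolutions, and the replicate block. ATAC-seq and CUT&RUN samples, and a deposited table of normalized RNA-seq values, were not used here.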

Additional observations from a re-analysis of the deposited data

How the results depend on the processing

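Of the counts and levels recomputed under the alternatives, 106 stayed within the spread between mice or within 1.5 times the count, and 10 did not. Many of the 106 were RNA-seq or culture comparisons in which no member passed the filter. Their count of 0 was fixed in advance and says nothing about stability. For inner root sheath-like against matrix-like cells, the 0 members called became 2 without the filter on low counts, 2 with the replicate block and 1 with library sizes that left out Krtap UMIs. The mean Krtap level of cortex-like cells was 417 CPM in place of 333 with at least 1000 genes and under 5% mitochondrial UMIs. That of medulla-like cells was 504 CPM with doublets kept, 425 at resolution 0.5 and 574 under the stricter cell filter, in place of 570. At resolution 0.5 the class named medulla-like held 2215 cells in place of 962, and no class was named cortex-like. The ratio of Krtap level between the highest and the lowest hair keratin bin was 5.49 with 3 bins in place of 8.26 with 5. When Krtap genes were also offered to the clustering, the mean level was 806 CPM in cortex-like cells, now 284 and 119 cells in place of 748 and 443, and 527 CPM in medulla-like cells. The cause of these shifts was not tested.

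With the replicate block, 5, 4, 4 and 4 members were called in cortex-like against matrix-like, medulla-like and inner root sheath-like and in medulla-like against matrix-like cells, where 4, 3, 4 and 4 were called without it. In the RNA-seq medium effects and their interaction the block gave 0 calls, as did leaving out each library in turn (0 to 0). No member passed the filter in these fits, so no call was possible. The block cannot give genotype effects. Same-numbered RNA-seq libraries deviated together at -0.0188 and 0.067, so their numbers do not show pairing. The Krtap8-1 difference between cortex-like and medulla-like cells turned to 0.47 when Krtap genes entered the clustering. Resolution 0.5 gave no cortex-like or matrix-like class of its own, so those comparisons have no value there. With 1 mouse left out only fold changes remain: Krtap11-1 in cortex-like against matrix-like cells was 6.66 without mouse 1 and 5.95 without mouse 2, and Krtap15 in cortex-like against medulla-like cells was -4.18 without mouse 1. With 2 mice and no cuticle-like class, a member at 0 is known only to lie under the limit that 3 UMIs set.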

Other observations

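Outside the hair, the Schwann-like cells of mouse 1 stood at 92.5 CPM of Krtap UMIs, from 19 UMIs in 28 cells, too few cells to enter the comparisons. The suprabasal epidermis-like cells differed between the mice, with 52 Krtap UMIs (21.2 CPM) in 300 cells of mouse 1 and 12 (3.51 CPM) in 301 cells of mouse 2.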
